A study of Mus musculus with 12 samples.

Results

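Sprr1a, Ankrd1, Csrp3, Cdkn1a, Gadd45a, Runx1 and Ncam1 are 7 genes that skeletal muscle is known to raise when it is denervated or damaged, or when its fibres are strained. They were picked by symbol from the 15344 genes of each expression table, and all 7 were found. They had been chosen on their levels in these libraries, so that their values and fold changes are given here as a description, and where the rule for calling genes is applied to them nothing is read from it. RNA-Seq of quadriceps was performed in 12 mice aged 6 months, 4 in each of 3 groups. The WT group was untreated wild-type C57BL/6. The KO group carried the Gaa knockout and had received PBS. The AAV group carried the same knockout and had received AAV2/8-LSPhGAApA, a vector in which a liver-specific promoter drives human GAA, at 2e12 vg/kg into the tail vein at 2 months of age, which was 4 months before harvest. The methods describe the injected knockout mice as males on a C57BL/6 background, and because the promoter is restricted to liver the muscle was to receive the enzyme from the blood. Each library is 1 animal. Between 22122233 and 47379737 reads per library were assigned to genes, and the values are normalized counts, that is reads divided by 1 size factor per library.

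Denervation of a muscle fibre is known to switch on genes that are otherwise kept at the motor endplate, among them acetylcholine receptor subunits and Ncam1, together with the transcription factor Runx1 and the growth arrest genes Gadd45a and Cdkn1a. Ankrd1 and Csrp3 encode proteins of the sarcomere that bind titin and the Z-disc and respond to stretch. Sprr1a encodes a small proline-rich protein first known from the cornified envelope of skin, and it is also induced in injured neurons and stressed heart muscle. Many of these genes also respond to injury, inflammation and exercise, so that none of them marks denervation alone.

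Gaa, the targeted gene (ENSMUSG00000025579), went against the labels. Its normalized count was 342.9, 14640.2, 323.8 and 460.3 in WT 1 to WT 4, and 946.8, 587.0, 499.6 and 9854.3 in AAV 1 to AAV 4. The 4 KO libraries lay between 11936.2 and 13074.5. Gaa was thus high in WT 2, AAV 4 and the 4 libraries labelled KO, and low in the other 3 of WT and the other 3 of AAV, although the AAV libraries are labelled with the same knockout as KO. The groups are written below as the libraries labelled WT, KO and AAV, and a direction between them is a direction between labels. Whether each library carries the right label was not tested, and a count of Gaa RNA does not show whether the RNA encodes an active enzyme. GAA activity and glycogen were assayed in other pieces of these muscles, per the methods, and those assays are not used here. Fast-fibre genes summed to between 4152000 and 7348000 normalized counts per library, so that the defining genes of a fast limb muscle were present in each.

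The 7 genes are spread over 7 chromosomes, and all are protein coding in GENCODE M21 on GRCm38. RefSeq promoters on GRCm38.p6, here the 250 bases before a transcription start, were matched for 6 of the 7 genes, with 9 starts in all. Ncam1 had none. The promoters of Sprr1a, Ankrd1 and Cdkn1a are shown because they hold letters known to be bound by factors of the damage response. In the promoter of Sprr1a (chr3:92485882-92486131, - strand) the capitals mark 2 copies of the AP-1 motif TGANTCA, which lie 146 to 140 and 116 to 110 bases before the start. In that of Ankrd1 (chr19:36119845-36120094, - strand) they mark 2 copies of the TEAD motif GGAATG, at 210 to 205 and 123 to 118 bases before the start. In that of the upstream start of Cdkn1a (chr17:29090729-29090978, + strand) they mark CATG and CATG set 6 bases apart, the core of a p53 response element, at 48 to 35 bases before the start. Each sequence is written 5′ to 3′ on the strand of its gene.
Sprr1a: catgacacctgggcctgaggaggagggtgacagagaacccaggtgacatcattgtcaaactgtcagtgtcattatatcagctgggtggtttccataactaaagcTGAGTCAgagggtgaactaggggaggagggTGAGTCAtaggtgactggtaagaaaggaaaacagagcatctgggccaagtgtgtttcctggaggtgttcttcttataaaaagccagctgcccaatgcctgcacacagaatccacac
Ankrd1: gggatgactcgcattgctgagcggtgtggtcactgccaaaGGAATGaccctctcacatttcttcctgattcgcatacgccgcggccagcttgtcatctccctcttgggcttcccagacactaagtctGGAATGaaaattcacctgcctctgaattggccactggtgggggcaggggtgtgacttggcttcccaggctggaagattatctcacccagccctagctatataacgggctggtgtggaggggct
Cdkn1a: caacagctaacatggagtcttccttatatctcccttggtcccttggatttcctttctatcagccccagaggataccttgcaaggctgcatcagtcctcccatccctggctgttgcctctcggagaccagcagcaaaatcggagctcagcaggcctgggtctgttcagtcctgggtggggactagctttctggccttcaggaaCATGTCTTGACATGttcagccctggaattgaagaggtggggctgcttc

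On either strand, 6.75% of all 32851 promoters of this length held TGANTCA, 12.6% held GGAATG and 0.490% held CATG and CATG at that distance. The last form was searched after the sequence had been seen, because the full p53 response element in its strict form had no match in the 9 promoters of the 7 genes. TGANTCA was present in 1 of these 9 promoters and GGAATG in 2, the other being a promoter of Runx1. The E-box CAGCTG was present in 1 (2 copies in the promoter of Sprr1a), against 13.0% of all promoters, and the RUNX motif TGTGGT in 1 (Ankrd1), against 14.1%. None of the matches overlapped another. The STAT motif TTCNNNGAA and the CArG box had no match in these windows and were found in 7.02% and 1.47% of all promoters. A match is a stretch of letters and not a measured binding site.

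Sprr1a (ENSMUSG00000050359, chromosome 3, 92483952 to 92485895, - strand) was all but restricted to the libraries labelled WT and AAV. Its normalized count was 193.6, 309.3, 17.0 and 308.2 in WT 1 to WT 4, and 84.1, 9.1, 3.5 and 151.4 in AAV 1 to AAV 4. Of the 4 KO libraries, 3 held no read and KO 4 held 1. The lowest AAV library, AAV 3, rested on 3 reads and AAV 2 on 9, whereas WT 4 rested on 316. Every library labelled WT or AAV thus lay above every library labelled KO, but the libraries within a label differed widely, by 18.2-fold between the highest and lowest WT and by 42.7-fold between the highest and lowest AAV. Over all reads of a group, Sprr1a was 832.5-fold higher in WT than in KO (95% interval 149 to 32920, from 842 reads against 1) and 277-fold higher in AAV than in KO (49.25 to 10990, from 238 reads against 1). The intervals are exact conditional ones and cover counting error only, not the difference between animals. On the log2(value + 1) scale the fold change was -6.85 ± 0.82 (SE, n = 4 per group) for KO minus WT, 4.57 ± 1.0 for AAV minus KO and -2.29 ± 1.23 for AAV minus WT, and the size of the first pair depends on the 1 that is added to values of 0.

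Among the members, Runx1 had the pattern most like that of Sprr1a. Runx1 (ENSMUSG00000022952, chromosome 16, 92601466 to 92826149, - strand), a transcription factor that denervated fibres are known to raise, had normalized counts of 674.1, 645.3, 199.7 and 733.4 in WT 1 to WT 4. The libraries labelled KO were at 85.0, 66.7, 85.9 and 60.1, and those labelled AAV at 501.7, 188.3, 114.6 and 551.5. WT 1, WT 2, WT 4, AAV 1 and AAV 4 were the higher libraries, WT 3, AAV 2 and AAV 3 followed between 114.6 and 199.7, and the 4 KO libraries lay below all of these. The log2 fold change was -2.76 ± 0.38 (SE, n = 4 per group) for KO minus WT, 1.90 ± 0.45 for AAV minus KO and -0.85 ± 0.57 for AAV minus WT.

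Gadd45a (ENSMUSG00000036390, chromosome 6, 67035096 to 67037457, - strand), a stress protein that binds cell cycle kinases and is raised in denervated muscle, was at 2869.4, 4763.5, 1103.8 and 2523.0 in WT 1 to WT 4 and at 301.5, 333.5, 387.2 and 461.5 in KO 1 to KO 4. In AAV 1 to AAV 4 it was at 2496.0, 697.7, 771.2 and 1747.3. Groups labelled WT and KO did not overlap, nor did those labelled AAV and KO, and the 4 KO libraries differed among themselves by 1.53-fold only. The log2 fold change was -2.76 ± 0.37 (SE, n = 4 per group) for KO minus WT, 1.75 ± 0.37 for AAV minus KO and -1.0 ± 0.50 for AAV minus WT. E230016M11Rik lies across Gadd45a on the opposite strand and reached a normalized count of 95.4 at most. Whether the counting used strand is not given in the sources used here, so that a few of these reads could belong to either gene.

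Cdkn1a (ENSMUSG00000023067, chromosome 17, 29090976 to 29100727, + strand) encodes p21, the cell cycle inhibitor that p53 is known to induce. It was at 5173.2, 3359.2, 853.0 and 3655.3 in WT 1 to WT 4, at 1325.6, 1061.3, 641.7 and 869.2 in KO 1 to KO 4, and at 3872.8, 1666.2, 986.1 and 5099.7 in AAV 1 to AAV 4. WT 3 and AAV 3 both fell within the range of the libraries labelled KO, so that each of the labels WT and AAV overlapped KO. WT and AAV also overlapped each other, with or without these 2 libraries. The log2 fold change was -1.53 ± 0.48 (SE, n = 4 per group) for KO minus WT, 1.34 ± 0.46 for AAV minus KO and -0.18 ± 0.63 for AAV minus WT.

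Ncam1 (ENSMUSG00000039542, chromosome 9, 49502136 to 49798925, - strand), a neural cell adhesion molecule that spreads over the surface of denervated fibres, was at 945.6, 834.5, 138.0 and 704.1 in WT 1 to WT 4. It was at 163.3, 118.9, 127.3 and 100.8 in KO 1 to KO 4 and at 326.6, 184.2, 131.1 and 790.1 in AAV 1 to AAV 4. As for Cdkn1a, WT 3 and AAV 3 fell within the range of the libraries labelled KO, and AAV 4 alone of its label came up to the 3 high WT libraries. The log2 fold change was -2.06 ± 0.53 (SE, n = 4 per group) for KO minus WT, 1.16 ± 0.46 for AAV minus KO and -0.90 ± 0.68 for AAV minus WT.

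The other 2 members are the stretch-sensing pair. Ankrd1 (ENSMUSG00000024803, chromosome 19, 36111961 to 36120099, - strand), a cofactor that shuttles between titin and the nucleus, was at 2190.7, 2454.6, 673.7 and 4569.2 in WT 1 to WT 4, at 1404.9, 720.0, 274.1 and 244.0 in KO 1 to KO 4, and at 1641.5, 2508.9, 376.7 and 2415.4 in AAV 1 to AAV 4. KO 1 and KO 2 were above WT 3 and AAV 3, and the libraries labelled KO differed among themselves by 5.76-fold, far more than for Gadd45a or Runx1. The log2 fold change was -1.98 ± 0.65 (SE, n = 4 per group) for KO minus WT, 1.45 ± 0.68 for AAV minus KO and -0.54 ± 0.68 for AAV minus WT.

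Csrp3 (ENSMUSG00000030470, chromosome 7, 48830398 to 48848033, - strand) encodes muscle LIM protein, a Z-disc protein that is richer in slow fibres. It was at 1160.1, 2083.6, 6083.2 and 2277.3 in WT 1 to WT 4, at 1012.6, 1860.0, 319.8 and 289.1 in KO 1 to KO 4, and at 2460.1, 7027.4, 1445.5 and 2498.0 in AAV 1 to AAV 4. WT 3, the lowest WT library for the other 6 members, was here the highest, and AAV 2 was the highest library of all. The log2 fold change was -1.89 ± 0.64 (SE, n = 4 per group) for KO minus WT, 2.12 ± 0.63 for AAV minus KO and 0.22 ± 0.55 for AAV minus WT.

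**Figure D1:**
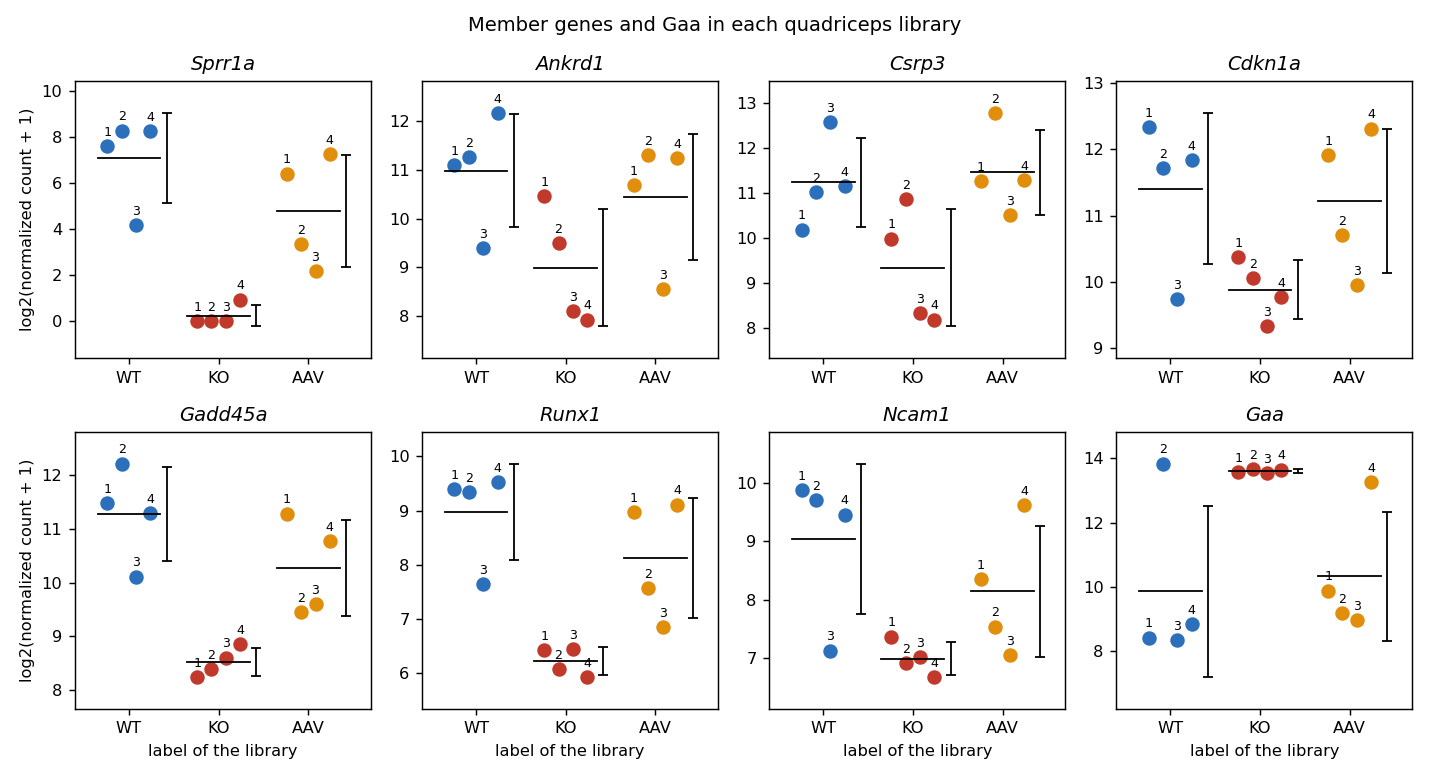
Each panel plots log2(normalized count + 1) of 1 gene in the 12 libraries, with the animal number above each point, the mean as a line and its SD as a bar at the side. WT 3 and AAV 3 are each the lowest library of their label in 6 of the 7 members, Sprr1a is at 0 reads in 3 KO libraries and at 1 in the fourth, and Gaa is highest in the KO libraries, WT 2 and AAV 4.

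Levels of different genes are given per kilobase of exon. All genes were measured in the same animals, so that overlapping ranges of mean ± SD do not show equal levels. Differences between genes within an animal were not tested. In the libraries labelled WT, the mean level was 1596 ± 854 normalized counts per kb (SD, n = 4) for Gadd45a, 1086 ± 815 for Csrp3, 918 ± 504 for Cdkn1a and 857 ± 556 for Ankrd1, and the ranges of these 4 overlapped. Sprr1a (257 ± 171), Ncam1 (75.7 ± 41.4) and Runx1 (46.8 ± 20.4) followed. In the libraries labelled KO, Sprr1a was last, at 0.274 ± 0.549 normalized counts per kb, below Runx1 at 6.19 ± 1.08 and Ncam1 at 14.7 ± 3.03. Csrp3 (326 ± 277), Cdkn1a (274 ± 81.7), Ankrd1 (229 ± 188) and Gadd45a (210 ± 39.7) were the higher members there, and their ranges overlapped. In the libraries labelled AAV, Csrp3 was highest, at 1257 ± 934 normalized counts per kb, and Cdkn1a (818 ± 538), Gadd45a (809.5 ± 486) and Ankrd1 (601 ± 342) lay within its spread. Sprr1a (77.0 ± 86.9), Ncam1 (41.3 ± 34.6) and Runx1 (28.2 ± 18.3) were lower, and their ranges overlapped.

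Over the members, all 7 were lower for KO minus WT and all 7 higher for AAV minus KO. Their median log2 fold change was -2.06 for KO minus WT, where the median of all genes tested was 0.02, and 1.75 for AAV minus KO, where that of all genes was 0.04. Genes counted as called when limma's adjusted p (Benjamini-Hochberg) was under 0.05 and the log2 fold change was 1 or more in size. By this rule 6 of the 7 were called lower for KO minus WT, beside 8.5% of the 14859 genes tested, and 4 of the 7 were called higher for AAV minus KO, beside 5.43% of 14894. As the members were chosen on these contrasts, nothing is read from the counts or from those with a library left out. Without WT 2, in which Gaa was high, 3 of the 7 were called lower for KO minus WT, beside 5.62% of all genes, and without AAV 4 the same number was called higher for AAV minus KO, beside 4.32%. Leaving out WT 4 or KO 4 also gave 3 for KO minus WT, beside 5.53% and 6.72%. For AAV minus KO, 3 were called without KO 1, KO 3, KO 4, AAV 1 or AAV 2, beside 2.90% to 5.14% of all genes, and 7 without AAV 3, beside 7.93%. Sprr1a, Gadd45a and Runx1 were the 3 members whose 4 KO values all lay below the 4 WT values, as did those of 15.1% of all genes tested. The same 3 were those whose 4 AAV values all lay above the 4 KO values, beside 14.8% of all genes. Without WT 3, 6 of the 7 members had no overlap between KO and WT, beside 26.1% of all genes lying lower, and without AAV 3 all 7 lay higher for AAV minus KO, beside 21.6%.

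**Figure D2:**
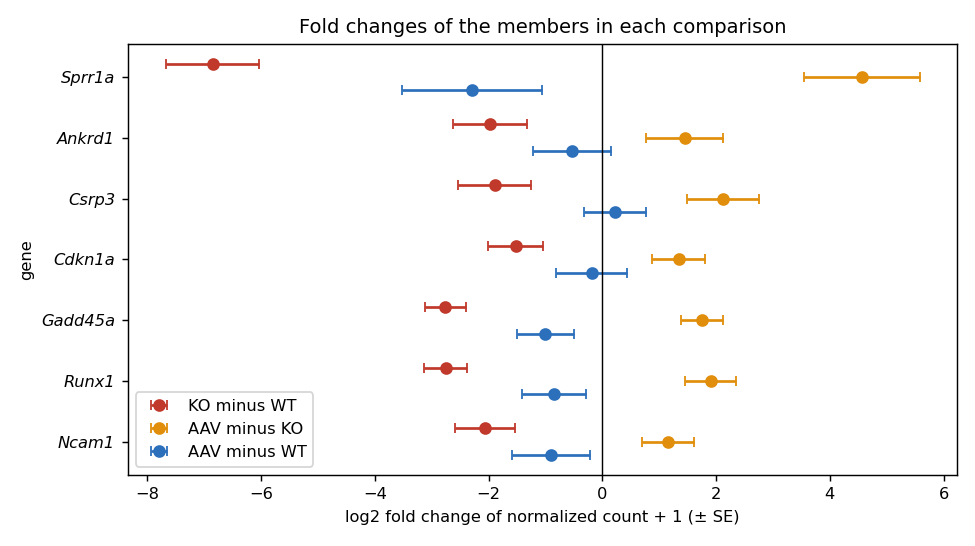
The horizontal axis gives the log2 fold change of the normalized count + 1, with the SE from limma as the bar (4 libraries per label), for the 7 members in the 3 comparisons. All members lie left of 0 for KO minus WT and right of 0 for AAV minus KO, while for AAV minus WT they lie between -2.29 and 0.22.

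Whether the libraries labelled AAV came back to the level of those labelled WT was asked by setting these 2 labels side by side. Of the 7 members, 6 were lower in AAV and Csrp3 was higher, with a median log2 fold change of -0.85 beside -0.03 for all genes. These directions were not stable for 3 members, since without AAV 3 the fold change was 0.09 for Ankrd1 and 0.24 for Cdkn1a, and without AAV 2 it was -0.22 for Csrp3. None of the 7 was called by limma, edgeR or DESeq2, and none had an unadjusted p under 0.05 in the limma fit, where 18.2% of all 14939 genes had one. The calls over all genes were also few, 0.73% higher and 0.221% lower. With all libraries, the groups overlapped for each of the 7 members. Without WT 2 and AAV 4, whose Gaa levels were apart, the fold changes of the 7 ranged from -2.71 (Sprr1a) to 0.21 (Csrp3), none was called, and the groups overlapped for all 7, while 11.4% of all genes lay higher and 9.46% lower without overlap. Without WT 3 and AAV 3, a choice made after the data had been seen, they ranged from -2.39 (Sprr1a) to 0.99 (Csrp3), and again none was called. In those 6 libraries AAV and WT did not overlap for 4 of the 7 members. Csrp3 lay higher in AAV, beside 13.4% of all genes, and Sprr1a, Gadd45a and Runx1 lay lower, beside 13.9%. With the values of the libraries as scattered as they are, this does not show that the levels were alike.

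Within the labels WT and AAV, the same library was the lowest for most members. WT 3 was the lowest WT library for Sprr1a, Ankrd1, Cdkn1a, Gadd45a, Runx1 and Ncam1, and AAV 3 the lowest AAV library for 6 members, with Gadd45a as the exception, where AAV 2 was lower. The share of all genes lowest in WT 3 or AAV 3 was not counted. This order is therefore not shown to be particular to the members. Deviations of animals of different labels correlated most between WT 3 and AAV 3 (0.55). List genes named below with lower means in KO than in WT did not all follow this order. Among the WT libraries, Atf3 was highest in WT 3 and Perp lowest in WT 4. Socs3, Actn2, Myoz2, Fhl2 and Gadd45b were lowest in WT 1. The mean of the other 3 WT libraries exceeded WT 3 by 15.9-fold for Sprr1a, 6.00-fold for Ncam1, 4.76-fold for Cdkn1a, 4.56-fold for Ankrd1, 3.43-fold for Runx1 and 3.07-fold for Gadd45a. AAV 4 was the highest AAV library for Sprr1a, Cdkn1a, Runx1 and Ncam1, whereas each of the 4 WT libraries was the highest for 1 or 2 members. Among the KO libraries, KO 4 was the lowest for Ankrd1, Csrp3, Runx1 and Ncam1 but the highest for Sprr1a and Gadd45a, and KO 1 was the highest for Ankrd1, Cdkn1a and Ncam1 but the lowest for Gadd45a. For Gadd45a and Runx1 the KO libraries differed by 1.53-fold and 1.43-fold at most. The methods give no treatment that sets animals of 1 label apart.

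Markers of macrophages were lowest in WT 3 and AAV 3 and highest in WT 4 and AAV 4 of their labels. All 8 genes of this list were measured, and their sum was 4584, 4373, 1556 and 5190 normalized counts in WT 1 to WT 4, between 826.7 and 1527 in the libraries labelled KO, and 2041, 1535, 909.4 and 4686 in AAV 1 to AAV 4. Among the KO libraries KO 3 was the highest, and AAV 2, the highest AAV library for Ankrd1 and Csrp3, was at about the level of KO 3. Of the 8 genes, 6 were called lower for KO minus WT, beside 8.5% of all genes. For AAV minus KO limma called 0, with 3 at an unadjusted p under 0.05 (beside 41.1% of all genes), edgeR called 3 and DESeq2 called 4. Cd68, a lysosomal membrane protein of macrophages, had a mean of 447 ± 252 (SD, n = 4) in the libraries labelled WT, 32.4 ± 3.65 in KO and 163 ± 172 in AAV. None of the 8 macrophage genes was at 0 in any library. The part of these cells in the values of the members was not tested. In bulk tissue, fewer cells of a type and less RNA per cell cannot be told apart.

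Cells of skin are the best known source of Sprr1a. Of the 9 keratinocyte markers, Krt10, Trp63 and Sfn were measured, and the defining keratins Krt5, Krt14, Krt1 and Krt15 and the desmosome genes Dsg3 and Dsp were not among the rows of the tables. The 3 that were measured summed to between 320.6 and 711.2 in the libraries labelled WT, between 267.6 and 371.1 in KO and between 356.4 and 622.2 in AAV, with 0 of the 3 at 0 reads. WT 3 was the lowest WT library and AAV 4 the highest AAV library for this sum, as for Sprr1a, whereas the highest WT library was WT 1 and the lowest AAV library AAV 2. Krt10 was called lower for KO minus WT, from 98.0 ± 22.2 (SD, n = 4) to 37.5 ± 11.6 (log2 fold change -1.39 ± 0.27, SE, adjusted p = 0.00695, limma), and Trp63 and Sfn were not called. The part of these cells in the level of Sprr1a was not tested. None of the 18 genes of the list of Sprr relatives and cornified envelope proteins, Sprr1b among them, had a row. Sprr1a was thus measured without its relatives. Satellite cell markers (7 of 7 measured, none at 0) summed to between 1191 and 2010 in WT, 1320 and 1498 in KO and 1453 and 1787 in AAV. WT 3 held the 1191, against 1876 to 2010 in the other WT libraries, and AAV 4 was the highest AAV library, as for most members. Schwann cell markers (8 of 8 measured, none at 0), which are of interest because Ncam1 and Runx1 are also expressed in nerve, summed to between 1319 and 2980 in WT, 1997 and 3129 in KO and 1666 and 4582 in AAV, and WT 3 was the highest WT library. Of the 8 Schwann cell genes 1 was called higher for KO minus WT, beside 5.43% of all genes, and none of the satellite cell genes was called. The part of these cells was not tested either.

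Slow-fibre genes are given because Csrp3 is richer in slow fibres. Their sum over 8 of 8 genes, none at 0, was between 3698 and 7178 normalized counts in WT and between 1369 and 1579 in KO. In AAV 1 to AAV 4 it was 13140, 27950, 8078 and 3453, so that AAV 2, the library with the most Csrp3, was also the one with the most slow-fibre RNA, and AAV 4 had the least of its label. WT 3, the WT library with the most Csrp3, had a slow-fibre sum of 4471, below WT 2 and WT 4. The KO sums differed little, whereas Csrp3 differed 6.43-fold among the KO libraries. Of the 8 genes, 6 were called lower for KO minus WT and 7 higher for AAV minus KO, beside 8.5% and 5.43% of all genes. Fewer slow fibres and less slow-fibre RNA per fibre cannot be told apart, and the part of fibre type in the level of Csrp3 was not tested.

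**Figure D3:**
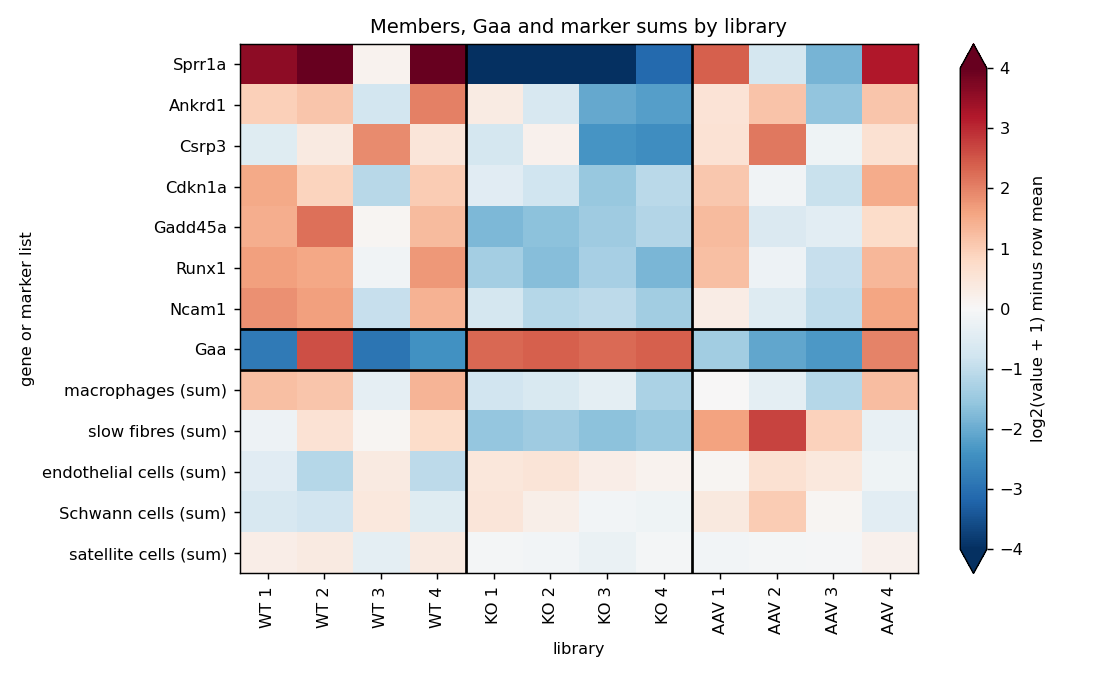
Colour shows log2(value + 1) minus the mean of its row, for the 7 members, Gaa and the sums of 5 marker lists (rows) in the 12 libraries (columns), with colours saturating at -4 and 4. WT 3 is the lowest WT library for Sprr1a, Ankrd1, Cdkn1a, Gadd45a, Runx1, Ncam1 and the macrophage sum, while the slow-fibre sum peaks in AAV 2.

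The genes with the profile most like that of a member were found from Pearson's r on log2(value + 1) over the 12 libraries, among 12566 other genes with a mean of at least 20. The r values are a description, since all points come from the same libraries and these fall into separate groups. For Sprr1a the closest were Sstr2, a somatostatin receptor (r = 0.99), Dusp4, a phosphatase of MAP kinases (0.99), Sh3bp2 (0.99), Spsb2 (0.99) and Runx1 (0.98). Sstr2 had a mean of 62.8 normalized counts in WT and 16.3 in AAV and was listed at 0 in each KO library. For Runx1 they were Mustn1 (0.99), Sstr2 (0.99) and Gltp (0.99). For Ncam1, the acetylcholine receptor subunit Chrna1 came first (0.99), followed by Tmbim1 (0.99) and Ttll1 (0.99).

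For Gadd45a the closest were 1110007C09Rik (0.99), Emc10 (0.99) and Scx, a transcription factor of tendon (0.98). For Cdkn1a they were Tmem50a (0.97), Pvr (0.97) and Prune2 (0.97), and for Ankrd1 Akirin2 (0.95), Prss12 (0.94) and Zfp385c (0.94). These genes, 19 in all for the 6 members other than Csrp3, were lowest in WT 3 among the WT and in AAV 3 among the AAV libraries, except that Emc10 was lowest in AAV 2. They were picked for their likeness to the members over the same libraries, so that nothing is read from this order. Runx1, which is among them, is itself a member. Csrp3 had other company, namely Ankrd2 (0.94), Cnnm4 (0.935) and the M-band gene Myom3 (0.92), each of which was lowest in WT 1.

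Of 12 close relatives of the members, 10 had a row in the tables. Called were 3 of these, each of them higher for AAV minus KO, beside 5.43% of all genes. Whether relatives and members differ was not tested. Ankrd2, a titin-binding relative of Ankrd1 that is richer in slow fibres, had a mean of 3879 ± 2212 normalized counts (SD, n = 4) in WT, 1434 ± 967 in KO and 6155 ± 3565 in AAV, and rose for AAV minus KO with a log2 fold change of 2.18 ± 0.51 (SE, adjusted p = 0.0151, limma). Ankrd23, the third member of that family, was at 81820 ± 13840, 67160 ± 18980 and 55370 ± 13640 and passed no test. Csrp1 (1184 ± 271, 1139 ± 101 and 1220 ± 130) and Csrp2 (55.3 ± 17.1, 70.2 ± 11.4 and 51.7 ± 15.3), the other LIM proteins of the Csrp family, passed none.

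Cdkn1b, which encodes p27, was at 727 ± 92.5 in WT, 963 ± 153 in KO and 778 ± 292 in AAV and was not called. Cdkn1c, which encodes p57, was at 618 ± 207, 432 ± 61.0 and 935 ± 367 and rose for AAV minus KO (log2 fold change 1.02 ± 0.29, adjusted p = 0.0309, limma). Gadd45b also rose for AAV minus KO (from 299 ± 90.2 to 653 ± 250, adjusted p = 0.0397, limma). Its KO values all lay below its WT values (575 ± 140), as did those of 15.1% of all genes. The calls of Cdkn1c and Gadd45b were both lost without KO 1, KO 2, KO 4, AAV 1, AAV 2 or AAV 3. Gadd45g was at 2115 ± 961, 2782 ± 1493 and 3531 ± 2373 and was not called. Runx2 (62.3 ± 32.2, 26.0 ± 9.63 and 71.2 ± 42.7) and Runx3 (15.1 ± 9.48, 5.83 ± 2.65 and 10.3 ± 7.02) had their lowest means in the KO libraries but did not pass the test in any comparison. For Runx2 the log2 fold change was -1.14 ± 0.44 (SE, adjusted p = 0.0750, limma) for KO minus WT and 1.27 ± 0.48 (adjusted p = 0.0749, limma) for AAV minus KO, beside 1.34 for Cdkn1a and 1.16 for Ncam1. Ncam2 and Sprr1b had no row.

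Denervation response genes, a list of 20 without the members, showed 7 called lower and 0 higher for KO minus WT (beside 8.5% of all genes). Their median log2 fold change was -0.55, beside 0.02 over all genes. Those that fell most were Chrng, the acetylcholine receptor subunit of foetal muscle (130 ± 101 in WT and 5.30 ± 6.21 in KO), Kcnn3, the SK3 potassium channel (103 ± 51.5 and 5.74 ± 2.93), and Chrnd, the delta subunit of the receptor (1098 ± 651 and 72.1 ± 15.3), with log2 fold changes of -3.89 ± 1.13, -3.80 ± 0.55 and -3.46 ± 0.67 (SE, adjusted p = 0.0305, 0.00208 and 0.00679, limma). For AAV minus KO, 4 of the 20 were called higher and 0 lower, beside 5.43% and 3.55% of all genes. The median was 0.34 beside 0.04. With 1 library left out the count ranged from 2 to 6. Kcnn3 rose to 49.3 ± 32.1, Chrnd to 630 ± 710 and Myh3, embryonic myosin, from 82.7 ± 22.7 to 506 ± 381, with log2 fold changes of 2.72, 2.38 and 2.18 (adjusted p = 0.0102, 0.0318 and 0.0266, limma).

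As for the members, WT 3 and AAV 3 were the lowest of their label for Chrng, Kcnn3, Chrnd and Myh3. Chrnd was at 137.2 in WT 3 and 100.4 in AAV 3, against up to 1560.9 and 1654.6 in other libraries of those labels. Without WT 2, 5 of the 20 were called lower for KO minus WT, and without WT 3 there were 9. The call of Chrng was lost without WT 1, WT 2, WT 4, KO 2, KO 3 or KO 4, and those of Chrnd and Myh3 for AAV minus KO without KO 2, KO 3, KO 4 or AAV 1 (Chrnd also without KO 1), whereas Kcnn3 was called in both comparisons with any 1 library left out.

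The list of p53 targets, which is without Cdkn1a and also holds Trp53, the gene of p53 itself, had calls in both directions. Of 19 genes tested for KO minus WT, 4 were called lower and 1 higher, with a median log2 fold change of -0.33 beside 0.02. Over all genes 8.5% were called lower and 5.43% higher, and 1 of 19 is near the latter share. Without WT 2 the calls in the list were 3 lower and 0 higher. Perp, a membrane protein of p53-dependent apoptosis, fell from 252 ± 110 in WT to 46.6 ± 3.81 in KO (log2 fold change -2.33 ± 0.26, adjusted p = 0.000653, limma) and rose to 280 ± 70.3 in AAV (2.53 ± 0.19, adjusted p = 8.51e-05, limma). Eda2r, a receptor of the TNF family, fell from 1392 ± 614 to 535 ± 55.0 (-1.27 ± 0.29, adjusted p = 0.0128, limma), and Bbc3, which encodes PUMA, from 87.8 ± 51.2 to 26.6 ± 8.17 (-1.48 ± 0.48, adjusted p = 0.0436, limma). Rrm2b, a subunit of ribonucleotide reductase, took the opposite direction, from 401 ± 280 to 756 ± 51.6 (1.14 ± 0.37, adjusted p = 0.0434, limma).

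For AAV minus KO, 2 of 18 genes of the p53 list were called higher (Perp and Bbc3, the latter at 67.7 ± 10.4 in AAV) and 2 lower. Those lower were Rrm2b, at 317 ± 114 in AAV, and Ccng1, cyclin G1, which was at 29480 ± 5359 in KO and 14410 ± 5367 in AAV (log2 fold changes -1.33 ± 0.25 and -1.10 ± 0.26, adjusted p = 0.00752 and 0.0162, limma). Over all genes 5.43% were called higher and 3.55% lower. In the left-out fits Perp, Eda2r and, for AAV minus KO, Bbc3 and Rrm2b were called in each. Bbc3 and Rrm2b lost the call for KO minus WT without WT 1, WT 2, WT 4 or any 1 of the KO libraries, and Ccng1 lost it without KO 4, AAV 1 or AAV 4. With total reads as the scaling, Bbc3 lost its call for KO minus WT and Ccng1 its call for AAV minus KO.

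Among the other cell cycle inhibitors and partners of Gadd45 (16 genes), 2 were called lower and 0 higher for KO minus WT. Over all genes 8.5% were called lower and 5.43% higher, so that 2 of 16 is near the share of all genes. The median log2 fold change was -0.32, beside 0.02. Cdkn2a, which encodes p16 and p19ARF, fell from 209 ± 177 to 2.92 ± 2.86 (-4.96 ± 1.13, adjusted p = 0.0122, limma) and Cdk6, a cyclin D kinase, from 93.4 ± 14.3 to 6.75 ± 2.79 (-3.65 ± 0.29, adjusted p = 0.000101, limma). Cdkn2a was at 5.7 in WT 3 and at up to 431.6 in other WT libraries. For AAV minus KO, 3 were called higher, beside 5.43% of all genes, namely Cdk6 (to 61.1 ± 47.2, 2.74 ± 0.52, adjusted p = 0.00783, limma), Gadd45b and Cdkn1c. With 1 library left out the count ranged from 1 to 3. The calls of Gadd45b and Cdkn1c were lost without KO 1, KO 2, KO 4, AAV 1, AAV 2 or AAV 3. Both calls of Cdk6 and that of Cdkn2a held with any 1 library left out.

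Of 7 measured cell division genes, 2 were called lower for KO minus WT, beside 8.5% of all genes, with a median of -1.53. The one named by the rule, Top2a, was at 43.2 ± 39.3 in WT and 6.37 ± 2.58 in KO (adjusted p = 0.0494, limma), with WT 3 at 5.7. This call was lost without WT 1, WT 2, WT 4 or any 1 of the KO libraries, and 0 of the 7 were called without WT 2 against 5 without WT 3. None was called for AAV minus KO by limma or edgeR and 1 was by DESeq2, and 2 had an unadjusted p under 0.05 in limma, where 41.1% of all genes had one. The median was 0.80.

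In the Z-disc and titin list (28 genes without Ankrd1 and Csrp3), 5 were called lower and 1 higher for KO minus WT, and 5 higher and 1 lower for AAV minus KO. Over all genes the shares were 8.5% lower and 5.43% higher, and 5.43% higher and 3.55% lower. A single call of 28 is near or below these shares. The medians were -0.16 and -0.06, beside 0.02 and 0.04 over all genes. Without AAV 3, 7 were called higher and 3 lower for AAV minus KO. Myoz2, calsarcin of slow fibres, fell from 2470 ± 855 to 371 ± 246 and rose to 2456 ± 1353 in AAV (log2 fold changes -2.92 ± 0.49 and 2.85 ± 0.52, adjusted p = 0.00405 and 0.00675, limma). Fhl2, a LIM protein, fell from 34.5 ± 6.72 to 9.67 ± 5.15 and rose to 33.2 ± 7.38 (-1.88 and 1.83, adjusted p = 0.0128 and 0.0167, limma). Actn2, alpha-actinin, fell from 30150 ± 6242 to 8709 ± 2833 (-1.84 ± 0.27, adjusted p = 0.00208, limma). Each of these calls, and that of Ankrd2, held with any 1 library left out.

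Pdlim5, a scaffold protein of the Z-disc, went the other way, from 5698 ± 3045 in WT to 11480 ± 1875 in KO and 5692 ± 2067 in AAV (1.14 ± 0.31 and -1.09 ± 0.27, adjusted p = 0.0244 and 0.0199, limma). Its call for KO minus WT was lost without WT 2, WT 4, KO 1, KO 2 or KO 4, and that for AAV minus KO without KO 1, KO 2 or AAV 4 and with total reads as the scaling. WT 3, at 9916.5, lay within the KO range of 9347.5 to 13269.9.

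The YAP and TEAD target list (15 genes), without Ankrd1, which is known as such a target, also had calls in both directions. It holds the regulators Yap1, Wwtr1, Tead1 and Tead4 besides targets. For KO minus WT 2 were called higher and 2 lower, beside 5.43% and 8.5% of all genes, with a median of 0.33. Nothing is read from counts this small. The counts were 1 and 1 without WT 2, and 4 and 2 without WT 3. Amotl2 (229 ± 61.6 in WT and 584 ± 86.3 in KO, adjusted p = 0.00247, limma) and Crim1 (863 ± 455 and 1636 ± 212, adjusted p = 0.0234, limma) rose. Tead4, a TEAD factor (616 ± 226 and 263 ± 17.7, adjusted p = 0.0115, limma), and Ctgf, a matricellular protein (708 ± 293 and 319 ± 89.2, adjusted p = 0.0424, limma), fell. The call of Amotl2 held with any 1 library left out, that of Tead4 was lost without WT 1, and those of Crim1 and Ctgf were each lost without any of WT 1, WT 2, WT 4, KO 3 and KO 4 (Crim1 also without KO 1, Ctgf also without KO 2). None of the 15 was called for AAV minus KO by limma, edgeR or DESeq2, and 6 had an unadjusted p under 0.05 in limma, beside 41.1% of all genes. With total reads as the scaling 1 was called, as it was without KO 1, AAV 2 or AAV 4, and without AAV 3 there were 2.

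Of 13 immediate early genes, whose products include the AP-1 subunits, 6 were called lower for KO minus WT, beside 8.5% of all genes, with a median log2 fold change of -1.32. Fosl1, the AP-1 subunit FRA-1, fell from 112 ± 57.4 to 0.969 ± 0.795 (-5.70 ± 0.57, adjusted p = 0.000401, limma), Junb from 1621 ± 836 to 153 ± 70.2 (-3.27 ± 0.48, adjusted p = 0.00224, limma) and Egr1 from 2637 ± 1559 to 353 ± 412 (-3.30 ± 0.79, adjusted p = 0.0145, limma). For AAV minus KO, 4 of the 12 tested were called higher, beside 5.43% of all genes. Among them were Fosl1 (to 62.4 ± 43.0, adjusted p = 0.00115, limma), Egr1 (to 1742 ± 1232, adjusted p = 0.0475, limma) and Ier2 (156.8 ± 20 in KO and 391.7 ± 153 in AAV, adjusted p = 0.0133, limma). Without AAV 4 the count was 2, and without AAV 3 it was 6. The call of Egr1 for AAV minus KO was lost without KO 2, KO 3, KO 4, AAV 1, AAV 2 or AAV 4. Fosl1, Junb and Ier2 kept their calls with any 1 library left out, and WT 3 and AAV 3 were the lowest of their label for Fosl1, Junb, Egr1 and Ier2.

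Nerve injury genes, with which Sprr1a is known to be induced in neurons, had 2 of 8 called lower for KO minus WT. Over all genes 8.5% were called lower. The median of the list was -0.58. Without WT 2, 1 of the 8 was called lower, and without WT 3 there were 3 lower and 1 higher. Sox11, a transcription factor of injured and developing neurons, fell from 50.5 ± 30.0 to 0.272 ± 0.544 (-4.99 ± 0.72, adjusted p = 0.00211, limma), which over all reads is 205.7-fold higher in WT (95% interval 36.5 to 8161 for counting error only, from 208 reads against 1), and Atf3, a stress-induced factor, from 1034 ± 640 to 339 ± 166 (-1.61 ± 0.51, adjusted p = 0.0401, limma). The call of Sox11 held with any 1 library left out and that of Atf3 was lost without WT 2, WT 4 or any 1 of the KO libraries. In the AAV libraries Sox11 was at 30.9 ± 26.5, and 1 of the 8 was called higher for AAV minus KO, beside 5.43% of all genes.

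**Figure D4:**
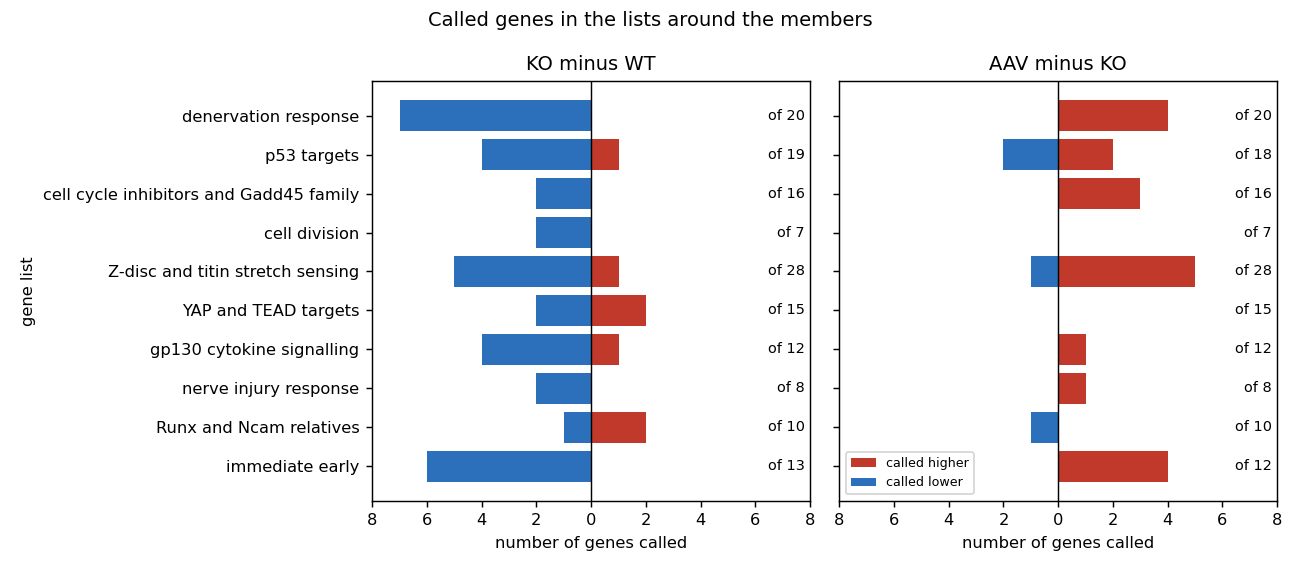
Bars give the number of genes called higher (red, to the right) and lower (blue, to the left) in each list for KO minus WT and for AAV minus KO, with the number of genes tested at the right of each panel. The denervation list has 7 of 20 called lower and then 4 of 20 higher, whereas the YAP and TEAD list has calls in both directions for KO minus WT and none for AAV minus KO.

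In these lists together, 147 different genes were tested for AAV minus WT and none was called by limma. Of them, 18 had an unadjusted p under 0.05 in limma, as did 18.2% of all genes, edgeR called 0 and DESeq2 called 2. Medians lay between -0.61 (immediate early genes) and 0.21 (relatives of Runx1 and Ncam1), beside -0.03 over all genes.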

How the data were processed

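Quadriceps RNA of 12 mice, 4 per label, had been sequenced. The authors trimmed the reads (Trim Galore 0.4.1, with FastQC 0.11.2), mapped them to the mouse genome GRCm38 with STAR, counted them per gene with HTSeq 0.6.1 and divided each library's counts by a DESeq2 1.16.1 size factor. The deposited signal values are these normalized counts, in 2 tables of 15344 genes that share the KO libraries, whose values differed by 0. In all 12 libraries 100% of the values were whole multiples of 1 step to within 0.05 reads, so that the reads were recovered. The deposited tables also hold the authors' own fold changes with their standard errors, test statistics and p-values, which were not used. Columns of samples outside the 12 numbered 0.

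As the values are normalized, the planned edgeR test on raw counts gave way to limma with a trend on log2(value + 1), fitted to the 8 libraries of each comparison on all genes that reached a value of 10 in 1 of them, and with p-values adjusted by Benjamini-Hochberg. The 1 added before the logarithm understates fold changes of genes with few reads. Calls needed an adjusted p under 0.05 and a log2 fold change of 1 or more in size. The p-values measure the spread between animals. Comparisons with KO share the same 4 KO libraries. The members and the gene lists were chosen with earlier results of these data known. Genes named besides the members were Gaa, 12 close relatives, up to 3 called genes in each direction per list and comparison (the largest log2 fold changes among those with a mean of at least 20), and the 5 (Sprr1a) or 3 (other members) genes with the highest Pearson's r. Markers and genes at 0 are given as whole lists, and Cd68 was picked after its values were seen. Positions came from GENCODE M21, which held 15186 of the identifiers, and lengths are those of merged exons. By BLAST at 90% identity over 50% of the length, no member had a near-identical copy. Sequences are RefSeq's.

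Alternatives were DESeq2 and edgeR on the recovered reads, total reads as the scaling, a pseudocount of 0.1, no filter, all 12 libraries in 1 fit, the replicate number as a block and libraries left out. Software was R 4.3.3, limma 3.58.1, edgeR 4.0.16, DESeq2 1.42.0, BLAST 2.17.0 and Python 3.11.15 with matplotlib 3.10.9, scipy 1.17.1, pandas 2.3.3 and numpy 2.4.6.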

Additional observations from a re-analysis of the deposited data

Results flagged for a closer look

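The 7 members and Gaa were examined in each label, 24 groups of 4 libraries in all, for a highest or lowest library that stood apart by Dixon's 95% criterion, which weighs its gap to the nearest library against the range of the group. For independent normal values chance alone gives about 1 in 20 such groups, and 4 were found. The values here are counts of genes that vary together in the same libraries, so that the 4 are not weighed against this rate. Runx1 in WT 3, at 199.7 normalized counts, lay below the other WT libraries, of which the nearest was at 645.3 (gap over range 0.835). Sprr1a in KO 4 was at 0.9, which is 1 read, against 0 in the other KO libraries. With 3 values at 0 any single read meets the criterion, so that nothing is read from this one. Gaa stood at 14640.2 in WT 2, whose nearest neighbour was at 460.3 (0.990), and at 9854.3 in AAV 4, whose nearest neighbour was at 946.8 (0.952).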

How the results depend on the processing

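Among the 7 members and the list genes that are named with a call, no called log2 fold change turned its sign under any alternative run. For Sprr1a, which rests on 1 read in KO, the size depends on how a near-zero count is treated. Its log2 fold change was -9.56 with a pseudocount of 0.1, -9.21 by edgeR and -9.51 by DESeq2 for KO minus WT, and 7.17, 7.42 and 7.75 for AAV minus KO. For AAV minus WT, calls over all genes moved from 142 to 250 with total reads as the scaling, to 397 with all 12 libraries in 1 fit, to 417 by DESeq2 and to 6 without WT 2 and AAV 4. With 1 library left out they ranged from 1349 (without WT 2) to 3244 (without WT 3) for KO minus WT (2070 with all libraries), from 787 (without AAV 1) to 1971 (without AAV 3) for AAV minus KO (1338) and from 18 (without AAV 2) to 326 (without WT 3) for AAV minus WT. Total reads as the scaling shifted the median of all genes by 0.16 (log2) for AAV minus KO and 0.15 for AAV minus WT, and gave 1058 genes higher and 351 lower in place of 809 and 529, and 224 and 26 in place of 109 and 33. Animals of different labels share only a number, and the correlation of their deviations was between -0.35 and 0.55. It was highest between WT and AAV, for number 3 (0.55) and number 4 (0.48), and was at most 0.06 for pairs with KO. With the replicate number as a block, calls numbered 1830, 1003 and 120, and 6, 5 and 0 members were called. Depth limits the values of genes with few reads in KO, such as Sprr1a, Sox11, Fosl1, Cdkn2a and Sstr2, and of Sprr1a also in AAV 2 and AAV 3. Apart from fits with a library left out, Ankrd1 lost its call for KO minus WT with total reads as the scaling, with all 12 libraries in 1 fit and in edgeR, Cdkn1a lost it with all 12 libraries in 1 fit, and Csrp3 lost its call for AAV minus KO in edgeR. Csrp3 gained a call for KO minus WT with total reads and with all 12 libraries, and Cdkn1a and Ncam1 gained one for AAV minus KO in edgeR and DESeq2 (Cdkn1a also under the block). Among the list genes, calls for KO minus WT were lost by Bbc3, Ctgf and Top2a with total reads as the scaling, by Bbc3, Cbfb, Cebpd, Rrm2b and Top2a under the block, by Atf3, Cbfb and Top2a with all 12 libraries in 1 fit, by Cbfb, Crim1, Lifr and Rrm2b in edgeR (in DESeq2 also, except Lifr) and by Top2a with a pseudocount of 0.1. Those for AAV minus KO were lost by Ccng1 and Pdlim5 with total reads as the scaling, by Egr1 and Gadd45b under the block, by Egr1 in edgeR and DESeq2 and by Cbfb, Ccng1, Chrnd, Clcf1 and Egr1 with all 12 libraries in 1 fit. The count of a list moved by over 1.5 times in 74 of 240 fits with 1 library left out. The causes were not tested.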

Other observations

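Lists that bear on the members less directly were also counted. Of 12 measured genes of gp130 cytokine signalling, which muscle is known to use after injury, 4 were called lower and 1 higher for KO minus WT. Over all genes these shares were 8.5% and 5.43%. Socs3, the feedback inhibitor of this pathway, fell from a mean normalized count of 666 ± 143 (SD, n = 4) in WT to 105 ± 47.0 in KO (log2 fold change -2.74 ± 0.30, adjusted p = 0.000584, limma). Clcf1, a ligand of the family, fell from 61.5 ± 35.3 to 14.4 ± 3.46 and rose to 55.7 ± 34.6 in AAV (adjusted p = 0.0355 and 0.0377, limma). Cebpd fell from 732 ± 361 to 229 ± 141 (adjusted p = 0.0366, limma), and Lifr, a receptor chain, rose from 1041 ± 801 to 2286 ± 189 (adjusted p = 0.0249, limma). The call of Socs3 held with any 1 library left out. That of Clcf1 for KO minus WT and that of Lifr were lost without WT 1, WT 2, WT 4 or any 1 of the KO libraries, that of Cebpd without WT 1, WT 2, WT 4, KO 1, KO 2 or KO 4, and that of Clcf1 for AAV minus KO in 7 of 8 such fits. Without WT 2, 1 of the 12 was called for KO minus WT, and without AAV 4, 0 were called for AAV minus KO.

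Of 10 genes tied to Runx1 and Ncam1, 2 were called higher and 1 lower for KO minus WT, against 6 and 4 without WT 3 and 0 and 1 without WT 2. Over all genes, with all libraries, 5.43% were called higher and 8.5% lower. Cbfb, the partner subunit of Runx proteins, was at 2578 ± 1873 in WT, 4910 ± 744 in KO and 2268 ± 920 in AAV (adjusted p = 0.0423 and 0.0188, limma), which is opposite in direction to Runx1. It was at 5360.0 in WT 3, and its call for KO minus WT was lost without WT 1, WT 2, WT 4 or any 1 of the KO libraries, and by edgeR and DESeq2. Its call for AAV minus KO was lost without KO 1, KO 4, AAV 1 or AAV 4. Gfra1, a GDNF receptor that binds Ncam1, rose from 58.2 ± 18.8 to 127 ± 7.74 (adjusted p = 0.0102, limma), a call lost without WT 2.

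Of the further marker lists, endothelial genes summed to between 1837 and 5171 normalized counts in WT, 4391 and 5783 in KO and 3580 and 6132 in AAV, with WT 3 the highest WT library. Called higher for KO minus WT were 2 of the 6 endothelial genes, beside 5.43% of all genes. Fibroblast genes summed to between 13210 and 22830, 13140 and 20180, and 10630 and 26960. Tendon genes summed to between 1958 and 3825, 1628 and 2574, and 1834 and 3228, and adipocyte genes to between 2922 and 6121, 4020 and 11520, and 5907 and 8936. Of 7 tendon genes 1 was called lower for KO minus WT and 1 higher for AAV minus KO, beside 8.5% and 5.43% of all genes. For the 10 fast-fibre genes these counts were 2 and 2. No fibroblast or adipocyte gene was called by limma. Of 8 T and NK cell markers 1, Cd3e, was measured, at no more than 22.3 in any library.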
